A study of Mus musculus with 12 samples.

Results

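The ubiquitin pathway genes Ube2l6, Ube2o, Trim58 and Ubb, which take part in red cell maturation, were examined for the reads that precipitated with Argonaute (Ago) in mouse fetal liver with and without the miR-144/451 locus. All peaks that the deposited peak table assigned to these 4 gene names were taken, which gave 71 of the 106382 peaks and 4 of the 12087 gene names in the table. Ube2o held 41 of them, Ube2l6 held 15, Trim58 held 9 and Ubb held 6. The genes were taken by name and not by a threshold on a measured value, but earlier results of these data were known when they were chosen. The method was HITS-CLIP, in which RNA is crosslinked to protein in the cells, the protein is precipitated, and the RNA fragments that come with it are sequenced. KO Ago libraries were made with an Ago antibody from miR-144/451-/- embryos (KO), and WT Ago libraries in the same way from wild-type embryos (WT). KO IgG and WT IgG were the control precipitations of the same genotypes. Each of the 4 groups held 3 libraries, and all 12 came from C57BL/6J fetal liver. The KO embryos lack both microRNA genes of the locus, so a difference cannot be assigned to one of them by genotype. The cells were whole fetal liver from embryos of unstated age. No label ties a library to a liver of its own, so the p-values reflect variation among libraries, which may be technical in part.

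Ubiquitin is attached to proteins by a chain of E1, E2 and E3 enzymes, and ubiquitin chains can send a protein to the proteasome. Maturing red cells use this system to remove much of their protein content and machinery while haemoglobin stays. Ubb encodes ubiquitin itself, as tandem copies in a single reading frame. Ube2l6 encodes an E2 that works mainly with the ubiquitin-like protein ISG15. Ube2o encodes a large E2 that also acts as its own E3 and, in mouse reticulocytes, tags ribosomal proteins for destruction. Trim58 encodes an E3 of late erythroblasts that binds the dynein motor and promotes its loss before the nucleus is expelled. MicroRNAs guide Ago to sites in messenger RNA that pair with the seed, bases 2 to 8 of the microRNA. The 3 mature microRNAs of the deleted locus whose matches were scored in the deposited table are shown here because the matches of the locus named below refer to their seeds. The sequences are from RefSeq (GRCm38.p6), the seed is in capitals, and all 3 lie in the same locus of chromosome 11, miR-451a at chr11:78073186-78073207, miR-144-3p at chr11:78073047-78073066 and miR-144-5p at chr11:78073010-78073032.
mmu-miR-451a: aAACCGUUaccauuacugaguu
mmu-miR-144-3p: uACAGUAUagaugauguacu
mmu-miR-144-5p: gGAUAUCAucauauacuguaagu
The 3 seeds differ from each other. The 6-base site that pairs with bases 2 to 7 of miR-144-3p reads UACUGU in the messenger RNA.

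The Ago libraries held 147969 to 341061 reads in peaks in KO and 202876 to 452157 in WT, and the IgG libraries held 24622 to 42916 in KO and 25985 to 42399 in WT. Levels below are CPM, counts per 1000000 reads in peaks of the same library, and they serve to compare libraries for 1 gene or peak, not genes with each other. The reads of cell type markers were counted from lists, as a description of the mixed material. Of 11 erythroid markers, 7 had a peak, and the 4 globin genes on the list had none under those names. These markers took 0.489% to 0.578% of the peak reads in KO Ago libraries and 0.623% to 0.759% in WT Ago libraries. All 11 hepatocyte markers had a peak, and they took 1.02% to 1.99% in KO Ago and 0.551% to 1.62% in WT Ago. At single peaks, 14 of 59 tested erythroid marker peaks, in 5 genes, were lower in KO, where 17.6% of all tested peaks were lower, and 0 of 85 hepatocyte marker peaks were called. Macrophage markers stayed at 0.0272% to 0.0296% in KO Ago and 0.0140% to 0.0355% in WT Ago, with 6 of 7 having a peak. In IgG libraries the erythroid share was 0.471% to 0.516% in KO and 0.413% to 0.631% in WT. The erythroid share thus moved with genotype in Ago libraries without overlap, and its part in the results on the 4 genes was not tested. In such bulk material fewer cells of a type and less RNA per cell cannot be told apart, and the level of the messenger RNA itself is not given by the counts.

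The first comparison asked whether the Ago reads of each gene, summed over all its peaks, differed between KO and WT. Ube2l6 was the member that fell. Its summed level in KO was below that in WT in every library, while Ube2o, Trim58 and Ubb overlapped or missed the threshold.
Ube2l6 had 201, 219.9 and 182 CPM in KO Ago libraries 3, 12 and 13, from 40, 75 and 27 reads. It had 479, 515 and 557 CPM in WT Ago libraries 1, 9 and 10, from 140, 233 and 113 reads. The highest KO library lay below the lowest WT library by more than 2-fold, and both groups were tight. The log2 change was -1.40 ± 0.19 (fit ± SE, n = 3 each), with edgeR quasi-likelihood adjusted p = 0.000841. Of 4430 genes tested, 5.37% were lower and 0.655% higher, and the median log2 change was 0.03.
Ube2o had 352, 659.7 and 493 CPM in KO Ago and 548, 712 and 444 CPM in WT Ago. The libraries of the 2 genotypes were interleaved. Its log2 change was -0.24 ± 0.22 with adjusted p = 0.551.
Trim58 had 60.4, 82.1 and 60.8 CPM in KO Ago and 82.2, 88.5 and 44.4 CPM in WT Ago, again interleaved. Its log2 change was -0.16 ± 0.31 with adjusted p = 0.810.
Ubb had 241, 149.5 and 176 CPM in KO Ago and 137, 84.0 and 138 CPM in WT Ago. The KO libraries were all above the WT libraries, but the log2 change of 0.63 ± 0.30 missed the threshold, with adjusted p = 0.239. The share of all genes with such an order, or with that of Ube2l6, was not counted.

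**Figure D1:**
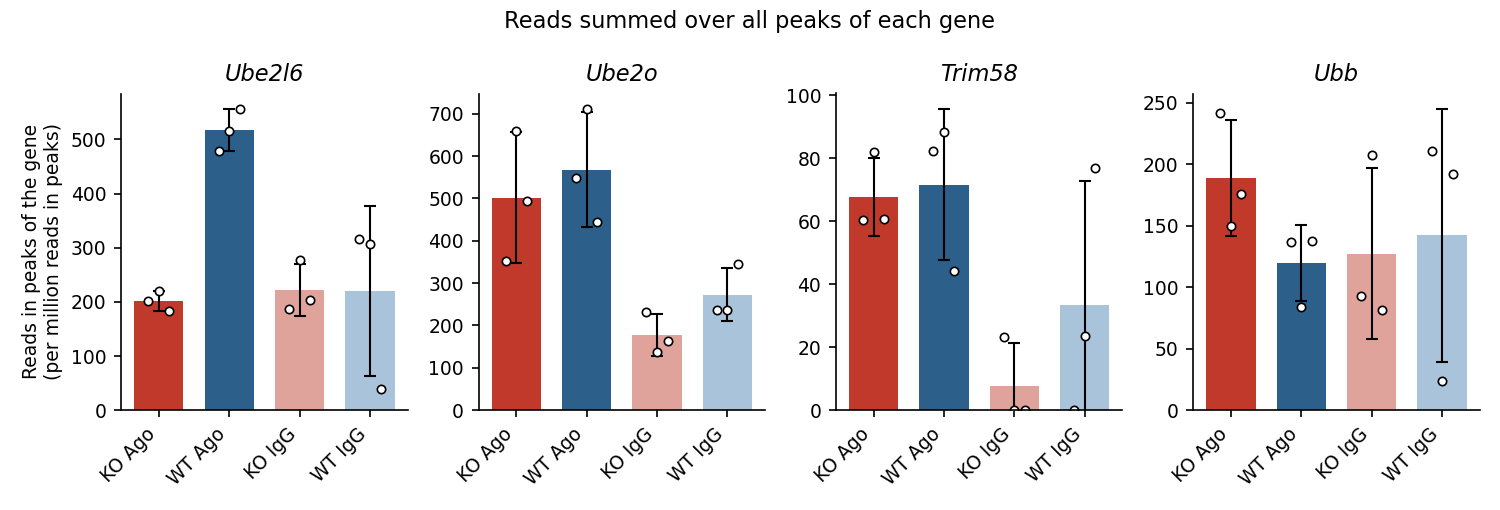
Reads summed over all peaks of Ube2l6, Ube2o, Trim58 and Ubb, in CPM, for the KO Ago, WT Ago, KO IgG and WT IgG libraries. Bars are means of 3 libraries, whiskers are 1 SD and points are single libraries; the Ube2l6 bars stand at 201 CPM in KO Ago and 517 CPM in WT Ago, and each panel has its own axis.

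The same genes were then read by the part of the transcript in which the peaks lay. The KO over WT ratio of Ube2l6 was lowest in its 3′UTR. The 8 peaks there summed to 77.6 ± 3.06 CPM in KO Ago and 325 ± 34.4 CPM in WT Ago (SD, n = 3 each), a KO over WT ratio of 0.239 with a 95% counting interval of 0.175 to 0.321. Its 6 coding peaks gave 98.0 ± 9.13 CPM in KO and 169 ± 8.06 CPM in WT, a ratio of 0.601 (0.446 to 0.803). Its single 5′UTR peak gave 25.6 ± 12.3 CPM in KO and 23.0 ± 4.99 CPM in WT, with overlapping libraries. Restricted to 3′UTR peaks, the log2 change of Ube2l6 was -2.21 with edgeR adjusted p = 6.37e-06, and restricted to coding peaks it was -0.75 with adjusted p = 0.0821. Those are the lowest and the highest adjusted p over its 16 alternative settings.
In Ube2o the ratios of the 3′UTR and the coding part lay on opposite sides of 1. The 11 peaks of its 3′UTR summed to 214 ± 68.9 CPM in KO and 132 ± 71.2 CPM in WT, a ratio of 1.53 (1.21 to 1.94). The 29 coding peaks summed to 288 ± 85.6 CPM in KO and 416 ± 81.4 CPM in WT, a ratio of 0.700 (0.590 to 0.829). Neither part passed the test over libraries. The log2 change was 0.55 with edgeR adjusted p = 0.154 for 3′UTR peaks and -0.51 with adjusted p = 0.273 for coding peaks, in a range of 0.154 to 0.922 over its 16 alternatives. The difference between the 2 parts of Ube2o was not tested. Counting intervals cover the sampling of reads only, and reads copied from the same molecule would make them too narrow.

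**Figure D2:**
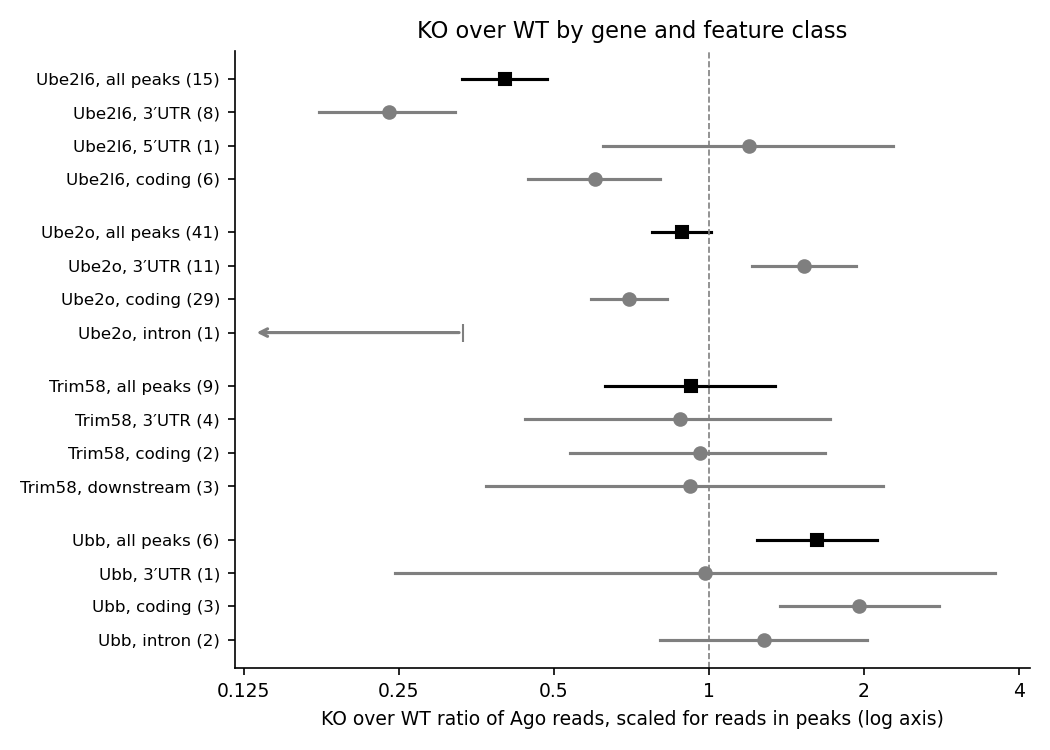
KO over WT ratio of Ago reads, scaled for reads in peaks, on a log axis, for each gene (squares) and for its peaks by feature class (circles), with the number of peaks in brackets. Lines are 95% counting intervals from summed reads and do not include the spread between libraries; the arrow marks the Ube2o intron peak with 0 KO reads, whose interval ends at 0.334, and the Ube2l6 3′UTR stands at 0.239.

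The next comparison took each peak alone. Of the 71 member peaks, 6 had enough reads to be tested at a minimum count of 10, namely 4 of Ube2l6 and 2 of Ube2o, and 65 did not. Both calls were in the 3′UTR of Ube2l6, a gene at chr2:84798828-84810003 on the plus strand (RefSeq GRCm38.p6, which is mm10). Both peaks passed the count minimum through their WT libraries only. Their entry to the test thus depended on the group in which they were high. Of 2425 peaks tested in the whole table, 17.6% were lower and 1.4% higher in KO. Their median was a log2 change of 0.09, or of 0.25 when library sizes alone set the scale.
The seventh of the 8 3′UTR peaks, chr2:84809551-84809587 in mm10, carried the most Ago reads of any member peak. It had 2, 5 and 2 reads in KO libraries 3, 12 and 13, and 36, 63 and 26 reads in WT libraries 1, 9 and 10. Scaled for depth this was 12.7 ± 2.39 CPM in KO and 130 ± 8.23 CPM in WT (SD, n = 3 each). The groups lay far apart, with the highest KO library at 14.7 CPM and the lowest WT library at 123 CPM. The log2 change was -3.48 ± 0.39 with edgeR quasi-likelihood adjusted p = 7.15e-05. The deposited table scored this peak as a 6-mer match of miR-144-3p, the kind of site given above, and as a miR-451a match with a mismatch at seed position 5.
The first 3′UTR peak, chr2:84809155-84809185, had 2, 3 and 1 reads in KO and 19, 29 and 11 reads in WT. Its level was 8.54 ± 1.67 CPM in KO and 61.1 ± 6.01 CPM in WT, without overlap. The log2 change was -2.97 ± 0.45 with edgeR adjusted p = 0.000196. No match of the 3 microRNAs shown above was scored for it. Both peaks were called under every alternative in which they were tested, 13 for the seventh peak and 12 for the first.
Of the other tested Ube2l6 peaks, the coding peak chr2:84802822-84802873 had a log2 change of -0.79 ± 0.38 with adjusted p = 0.207. The last coding peak, chr2:84809040-84809085, which ends 69 bases before the first 3′UTR peak, had -0.75 ± 0.37 with adjusted p = 0.212. In both of these the KO and WT libraries overlapped.

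**Figure D3:**
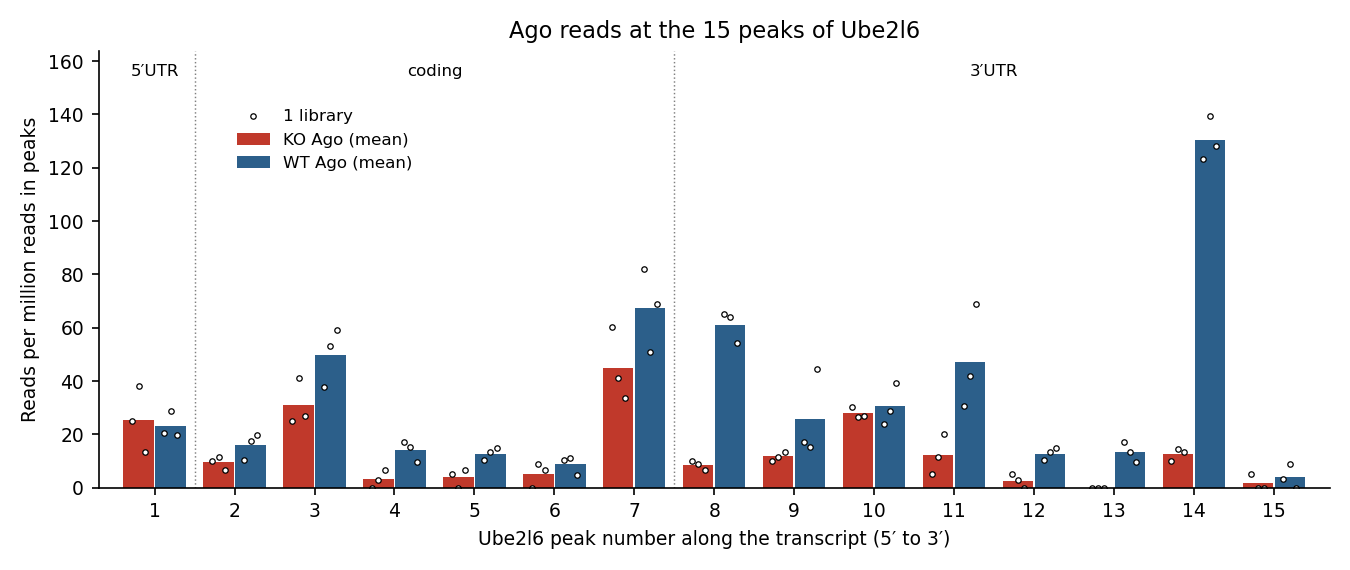
Ago reads at the 15 peaks of Ube2l6 in order from 5′ to 3′, in CPM. Bars are means of the 3 KO Ago libraries (left of each pair) and the 3 WT Ago libraries (right), points are single libraries; peak 14, the seventh 3′UTR peak, stands at 12.7 CPM in KO and 130 CPM in WT, while peak 10 stands at 27.9 CPM in KO and 30.7 CPM in WT.

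The reads were also distributed differently along Ube2l6. In KO the seventh 3′UTR peak took 6.34% of all Ago reads of the gene, with 5.0% to 7.41% in single libraries, and in WT it took 25.7%, with 23.0% to 27.0%. A test of each peak against the other tested peaks of its gene called this peak lower, with a within-gene log2 change of -1.64 and edgeR adjusted p = 0.0202. Of 1398 peaks in that test, 8.01% were lower and 3.58% higher. The seventh peak entered this test, too, through its WT libraries only. The call was lost in 4 of 8 alternatives, namely without KO library 3, 12 or 13 or without WT library 9, with adjusted p of 0.00446 to 0.150 over all 8. The first 3′UTR peak had -1.12 with adjusted p = 0.232 in the same test.
Without the 2 called peaks, which were set aside here because of their values, the other 13 peaks of Ube2l6 still summed to 179.9 ± 17.2 CPM in KO and 326 ± 43.5 CPM in WT. That is a ratio of 0.579 with a counting interval of 0.467 to 0.715, and the highest KO library, at 196 CPM, lay below the lowest WT library, at 291 CPM.
The other 3′UTR peaks gave fewer reads. The fourth, chr2:84809317-84809352, had 1, 4 and 3 reads in KO and 9, 19 and 14 in WT, a level of 12.3 ± 7.64 CPM in KO and 47.3 ± 19.6 CPM in WT. The sixth, chr2:84809469-84809515, had 0 reads in each KO library and 5, 6 and 2 in WT. The counting interval of its KO over WT ratio ends at 0.452. The third, chr2:84809243-84809288, lies between the first and the fourth, with 6, 9 and 4 reads in KO and 7, 13 and 8 in WT, where the libraries overlapped.

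Over all 71 member peaks, 15 had every KO library below every WT library, where 10.6% of all peaks in the table did so, and 6 had every KO library above, where 8.31% did. Ube2l6 held 8 of the 15 and none of the 6. Ube2o held 6 of the 15 and 4 of the 6. Trim58 held 1 of the 15, and Ubb held 2 of the 6. The shares of the whole table include many peaks with few reads, in which single reads decide the order. Neighbouring peaks of a gene can lie close together, with a smallest gap of 3 bases between member peaks, and can then share reads.

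A lower count minimum brought more of the members into the per-peak test. At a minimum count of 5, 20 member peaks were tested, which were 7 of Ube2l6, 9 of Ube2o, 3 of Ubb and 1 of Trim58. Of these, 5 were lower and 0 higher by the edgeR quasi-likelihood test, where 13.3% of 9485 peaks were lower and 0.59% higher. The 5 comprised 3 peaks of Ube2l6, among them the fourth 3′UTR peak with a log2 change of -2.14 ± 0.53 and adjusted p = 0.00605, and 2 coding peaks of Ube2o. All 5 passed this minimum through their WT libraries, so their entry depended on the group in which they were high.
Ube2o lies at chr11:116537740-116581503 on the minus strand. Its fifteenth coding peak, chr11:116541656-116541675, had 2, 0 and 0 reads in KO libraries 3, 12 and 13 and 15, 22 and 7 reads in WT libraries 1, 9 and 10. The level was 3.35 ± 5.81 CPM in KO and 44.8 ± 9.06 CPM in WT, without overlap. Reads were 15.98-fold lower in KO, with a counting interval of 4.17 to 136. The log2 change was -3.99 ± 0.72 with edgeR adjusted p = 0.000372. Both KO reads came from library 3, and without it, at the minimum count of 10, KO had 0 reads and the fitted log2 change was -6.79 with adjusted p = 0.000413, a size that depends on the prior count. The IgG libraries held 2 reads of this peak in KO and 4 in WT, or 19.3 ± 17.7 CPM in KO and 37.3 ± 10.47 CPM in WT. The WT Ago libraries, at 34.5 to 51.4 CPM, overlapped the WT IgG libraries, at 26.3 to 47.2 CPM. The table scored a miR-144-3p match with a mismatch at seed position 7.
The second coding peak of Ube2o, chr11:116546917-116546949, had 2, 2 and 2 reads in KO and 27, 10 and 9 in WT. Its level was 9.81 ± 3.83 CPM in KO and 53.0 ± 36.0 CPM in WT, where WT library 1 stood highest at 92.5 CPM. The log2 change was -2.70 ± 0.63 with edgeR adjusted p = 0.00364, and the scored match was of miR-144-5p, with a mismatch at seed position 7. Both Ube2o peaks were also lower against the other tested peaks of the gene, by a within-gene log2 change of -3.76 with adjusted p = 0.000731 and of -2.47 with adjusted p = 0.00621. In that test 6.41% of 6475 peaks were lower and 1.95% higher. The 5′UTR peak of Ube2l6, chr2:84798855-84798921, was the member called higher there, at 1.55 with adjusted p = 0.0391, while its own change between genotypes was 0.01.

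Several Ube2o peaks below the count minimum were picked out after their reads were seen, and they were not tested at either minimum. The intron peak chr11:116574838-116574869 had 0 reads in each KO library and 5, 7 and 5 in WT, and the counting interval of the KO over WT ratio ends at 0.334. It had 0 reads in the 6 IgG libraries as well, and its scored match was of miR-144-3p with a mismatch at seed position 7. The coding peak chr11:116539164-116539193 had 0, 2 and 1 reads in KO and 9, 16 and 3 in WT, which was 6.78-fold lower with a counting interval of 2.09 to 34.8. It was scored for miR-451a and for miR-144-5p, each with 1 mismatch. The seventh coding peak, chr11:116544563-116544599, had 0 reads in KO and 0, 3 and 4 in WT, where 1 WT library was also at 0.
Other Ube2o peaks had a higher mean in KO than in WT. The third 3′UTR peak, chr11:116538862-116538904, had 12, 31 and 12 reads in KO and 9, 23 and 3 in WT. The level of 77.5 ± 15.6 CPM in KO lay above the 32.2 ± 18.1 CPM in WT in every library. It did not pass the test, with a log2 change of 0.93 ± 0.42 and edgeR adjusted p = 0.163, except without WT library 9, where the change was 1.53 with adjusted p = 0.0413. Its WT libraries alone would not have met the count minimum, so its entry depended on the KO libraries, in which it was high. Over 13 alternatives the adjusted p was 0.0413 to 0.503. The first 3′UTR peak, chr11:116539024-116539048, had 6, 10 and 7 reads in KO and 5, 6 and 1 in WT, and its log2 change of 1.15 ± 0.51 had adjusted p = 0.173 at the lower minimum. This peak, too, passed the lower minimum through its KO libraries. Its counts came within 10% of those of a peak of another gene, so part of its reads may be shared. The largest coding peak, chr11:116539671-116539710, gave 85.4 ± 38.99 CPM in KO and 55.7 ± 21.2 CPM in WT with overlapping libraries, a log2 change of 0.39 ± 0.41 and adjusted p = 0.620. Without KO library 12 its log2 change was -0.13. None of these 3 peaks was scored for a microRNA of the locus. Leaving aside the 2 coding peaks called lower, the other 39 peaks of Ube2o summed to 489 ± 161 CPM in KO and 470.1 ± 149.6 CPM in WT.

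**Figure D4:**
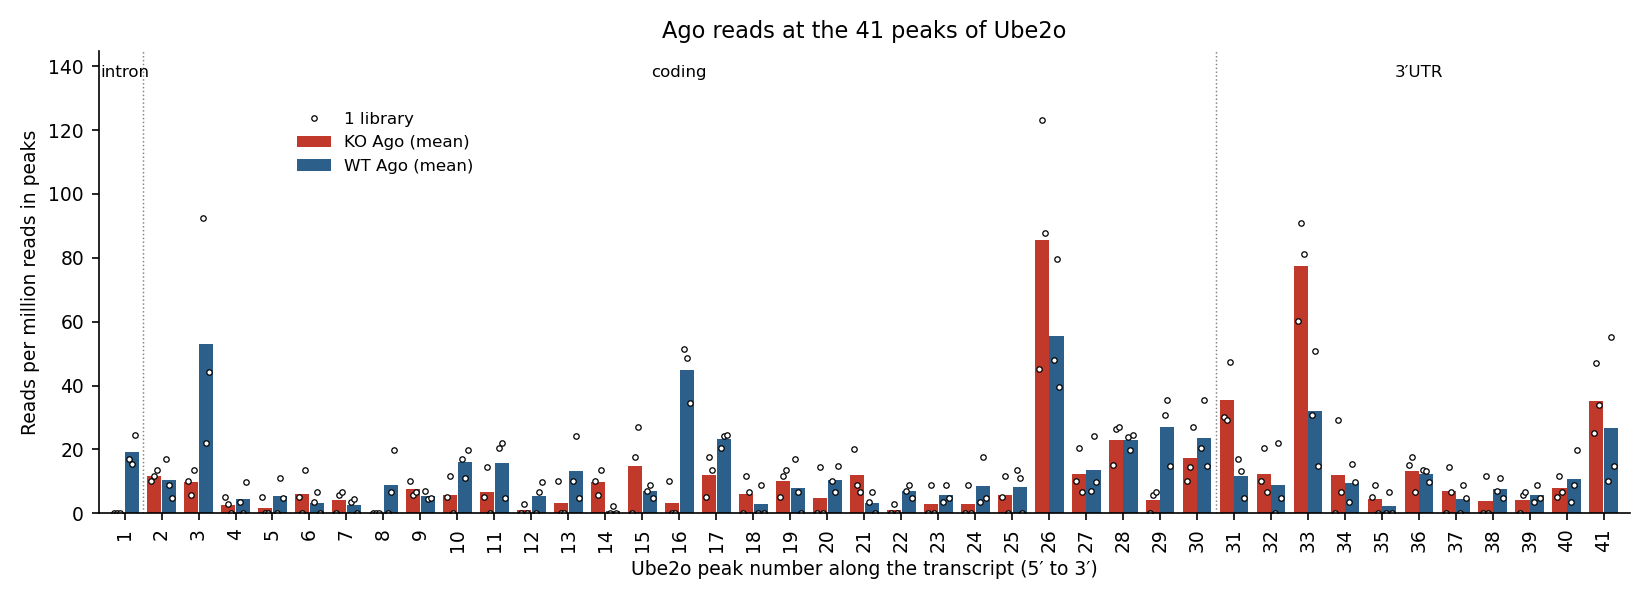
Ago reads at the 41 peaks of Ube2o in order from 5′ to 3′, in CPM. Bars are means of the 3 KO Ago libraries (left of each pair) and the 3 WT Ago libraries (right), points are single libraries; peak 16, a coding peak, stands at 3.35 CPM in KO and 44.8 CPM in WT, and peak 33, in the 3′UTR, at 77.5 CPM in KO and 32.2 CPM in WT.

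Trim58, at chr11:58640465-58652404 on the plus strand, showed no difference between genotypes that passed the test. Its main peak, in the coding sequence at chr11:58651632-58651655, had 8, 9 and 3 reads in KO libraries 3, 12 and 13 and 13, 11 and 3 reads in WT libraries 1, 9 and 10. The level was 29.0 ± 10.2 CPM in KO and 27.9 ± 15.2 CPM in WT, and the libraries overlapped. At the lower minimum the log2 change was -0.21 ± 0.49 with edgeR adjusted p = 0.881. The table scored this peak for miR-16-5p with a 7-mer-m8 match, and for miR-144-5p with a mismatch at seed position 6. miR-16-5p is not encoded at the deleted locus. The 4 3′UTR peaks of Trim58 together held 16 reads in KO and 25 in WT, a ratio of 0.881 with a counting interval of 0.440 to 1.72, and no difference was detectable at this depth. The 3 peaks downstream of the gene held 10 reads in KO and 15 in WT, and the last of them, chr11:58653007-58653027, had 0 reads in KO and 2, 3 and 1 in WT, where the counting interval of the ratio reaches 1.17 and so includes no change.

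Ubb, at chr11:62551171-62553213 on the plus strand, had no peak that passed the test between genotypes. The first and the third coding peak, chr11:62552340-62552373 and chr11:62552796-62552829, start 456 bases apart and had identical counts in all 12 libraries. Each had 15, 13 and 8 reads in KO and 7, 10 and 7 in WT, so the same reads may stand in both and the values of Ubb are uncertain. The Ago level of each was 55.9 ± 18.7 CPM in KO and 26.9 ± 6.68 CPM in WT, with every KO library above every WT library. The IgG level of each was 63.7 ± 34.9 CPM in KO, from 6 reads, and 51.98 ± 45.03 CPM in WT, from 5 reads. The mean Ago level was thus not above the mean IgG level in either genotype, and this difference was not tested per peak. Neither peak passed the test between genotypes at the lower minimum, with a log2 change of 0.81 ± 0.42 and edgeR adjusted p = 0.287. With the identical peaks counted once, an alternative chosen after seeing these counts, the gene sum of Ubb had a log2 change of 0.49 with adjusted p = 0.374. Over its 15 alternatives the adjusted p was 0.0765 to 0.577. The peak chr11:62552860-62552886 lay 30 bases after the third coding peak and was classed as intron in the deposited annotation, a class that was not checked. It had 13, 11 and 3 reads in KO and 10, 11 and 7 in WT, which overlapped. Its log2 change was 0.15 with edgeR adjusted p = 0.910. No Ubb peak was scored for a microRNA of the locus.

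**Figure D5:**
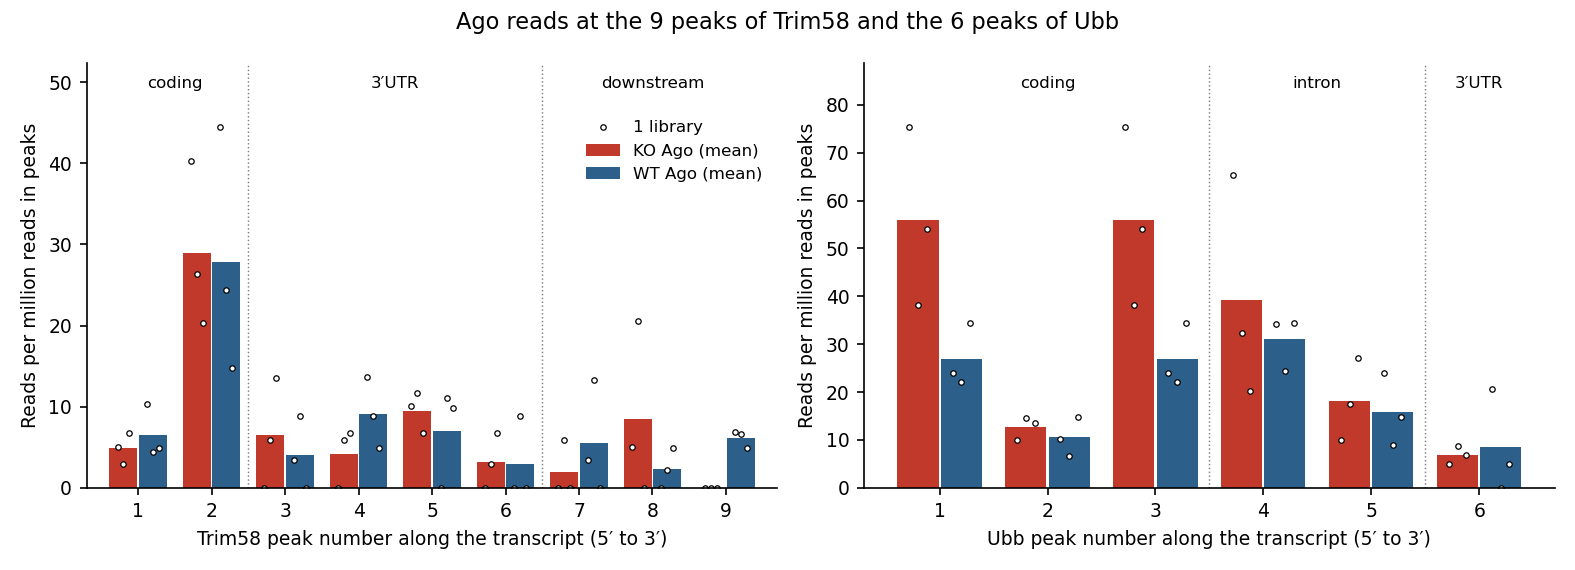
Ago reads at the 9 peaks of Trim58 (left panel) and the 6 peaks of Ubb (right panel) in order from 5′ to 3′, in CPM. Bars are means of the 3 KO Ago libraries (left of each pair) and the 3 WT Ago libraries (right), points are single libraries; Trim58 peak 2 stands at 29.0 CPM in KO and 27.9 CPM in WT, and Ubb peaks 1 and 3, with identical counts, at 55.9 CPM in KO and 26.9 CPM in WT.

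The Ago libraries were also set against the control IgG libraries of the same genotype, which asked whether the reads of a gene exceeded the background of the precipitation. By the edgeR quasi-likelihood test 0 of 3 tested members were called in either genotype, with 0 at an unadjusted p under 0.05 and 0 called by DESeq2, and no member's level in IgG libraries was 0 throughout. Ube2l6 averaged 201 ± 18.7 CPM in KO Ago and 222 ± 48.2 CPM in KO IgG, and 517 ± 38.8 CPM in WT Ago and 220 ± 158 CPM in WT IgG (SD, n = 3 each). In WT the lowest Ago library, at 479 CPM, lay above the highest IgG library, at 316 CPM, and in KO the groups overlapped. Its log2 difference of Ago over IgG was -0.81 ± 0.42 in KO with edgeR adjusted p = 0.237 and 0.44 ± 0.39 in WT with adjusted p = 0.518. Its mean level was highest in WT Ago, though the test did not place WT Ago above WT IgG. The libraries of KO IgG, WT IgG and KO Ago overlapped, and KO Ago was not tested against WT IgG. IgG counts were small, with 21 reads of Ube2l6 over the KO IgG libraries and 26 over the WT IgG libraries, of which WT IgG library 11 held 1.
Ube2o averaged 502 ± 154 CPM in KO Ago and 178 ± 49.1 CPM in KO IgG, and 568 ± 135 CPM in WT Ago and 273 ± 63.5 CPM in WT IgG. Its Ago libraries lay above the IgG libraries of their genotype in all cases, but the log2 difference was 0.74 ± 0.40 in KO with edgeR adjusted p = 0.251 and 0.44 ± 0.36 in WT with adjusted p = 0.487. The fits are scaled to the reads of tested genes and the CPM values to all reads in peaks, so the scales differ, and the median gene stood at 0.21 in KO and 0.19 in WT, or at 0.50 in KO and 0.38 in WT with library sizes alone.
Ubb averaged 189 ± 47.4 CPM in KO Ago and 127 ± 69.8 CPM in KO IgG, and 119.7 ± 30.9 CPM in WT Ago and 142 ± 103 CPM in WT IgG, with overlap in both genotypes. Its log2 difference was -0.12 ± 0.54 in KO with edgeR adjusted p = 0.923, where library sizes alone turned it to 0.18, and -0.82 ± 0.57 in WT with adjusted p = 0.388. Trim58 had too few reads to be tested there, with 1 read over the KO IgG libraries and 3 over the WT IgG libraries. In KO, 2.12% of 1979 genes were higher and 10.4% lower in Ago than in IgG, and in WT 2.43% of 2594 genes were higher and 12.6% lower.
At the seventh 3′UTR peak of Ube2l6 the IgG libraries held 5 reads in KO and 4 in WT, or 59.9 ± 53.9 CPM in KO and 31.4 ± 54.5 CPM in WT. The KO Ago level of 12.7 CPM at this peak was thus not above the IgG level, and the WT Ago level of 130 CPM was above that of the WT IgG libraries. The ratio of IgG to Ago peak height that the authors deposited for this peak was 0.0467. It is a ratio of heights and is not on the CPM scale, so it cannot be set beside the levels above. At the first 3′UTR peak of Ube2l6 the IgG libraries held 3 reads in KO and 2 in WT. That was 29.1 ± 25.4 CPM in KO IgG and 16.6 ± 14.5 CPM in WT IgG, beside 8.54 CPM in KO Ago and 61.1 CPM in WT Ago. The KO Ago level was thus not above the IgG level at this peak either. The IgG libraries held far fewer reads than the Ago libraries.
Whether the change between genotypes differed between Ago and IgG libraries was tested as an interaction over 2645 genes. By the edgeR quasi-likelihood test 0 were called, with 124 at an unadjusted p under 0.05. Ube2l6 had an interaction of -1.18 ± 0.58 on the log2 scale with adjusted p = 0.927 and an unadjusted p of 0.0464. The fall of Ube2l6 in Ago libraries was therefore not shown to differ from its change in IgG libraries. In IgG libraries alone, 249 genes were tested between KO and WT, with 0 called and 2 at an unadjusted p under 0.05, and no member had enough reads.

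The deposited seed codes were compared across the members, as a description. Of the 71 member peaks, 20 had a code for 1 or more of the 3 microRNAs of the locus, which is 28.2%, against 40.7% of all peaks. Most were single mismatches. A 6-mer or longer match was scored at 1 member peak for miR-144-3p, the seventh 3′UTR peak of Ube2l6, and at 1 for miR-144-5p, with none for miR-451a. In the whole table such matches stood at 3.32% of peaks for miR-144-3p, 0.635% for miR-144-5p and 1.03% for miR-451a. The miR-144-5p match was a 7-mer-A1 at the sixteenth coding peak of Ube2o, chr11:116541570-116541602, which had 1, 6 and 2 reads in KO and 6, 11 and 5 in WT. KO lay below WT there, at 12.0 CPM in KO and 23.2 CPM in WT, but the log2 change of -1.05 ± 0.57 missed the threshold with edgeR adjusted p = 0.314. Of the 5 member peaks lower at the smaller minimum, 3 had a code of the locus and 2, both in the 3′UTR of Ube2l6, had none. How far around a peak the authors searched for matches is not stated.

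The authors' deposited table of differential peaks, made with voom and limma on the peaks that passed their filter, listed 10 member peaks. Of these, 4 were lower in the authors' deposited table at a false discovery rate under 0.05 and 0 higher, where 35.7% of 6651 peaks were lower and 1.29% higher. The seventh 3′UTR peak of Ube2l6 had a log2 change of -3.79 in the authors' deposited table, with a false discovery rate of 1.21e-05. The Ube2o coding peaks there were chr11:116541656-116541675 at -4.23, chr11:116539164-116539193 at -3.06 and chr11:116546917-116546949 at -2.57. The largest coding peak of Ube2o stood at -0.10 in the authors' deposited table, and the third 3′UTR peak at 0.63, neither of them past that rate. The main Trim58 peak was at -0.51 and the 2 identical Ubb peaks at 0.33 each in the authors' deposited table, also not past it. The first 3′UTR peak of Ube2l6 was not among the peaks listed there.

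Genes of the ubiquitin system were counted from lists of E1 and E2 enzymes, E3 ligases with their adaptors, deubiquitinases and proteasome subunits. The lists include the members, with Ube2l6 and Ube2o among the E2 genes and Trim58 among the E3 genes. No list had a higher peak at the minimum count of 10, and lower peaks occurred in each of these 4. Among 13 tested peaks of E1 and E2 genes 2 were lower, and both were the Ube2l6 peaks described above, with a list median log2 change of 0.15. The 6 tested member peaks are among these 13. Among 25 tested peaks of E3 genes 7 were lower, in 6 of 12 genes, with a median of 0.34. Among 13 peaks of deubiquitinases 2 were lower, with a median of 0.07, and among 6 peaks of proteasome genes 2 were lower, with a median of -0.22. Over all 2425 tested peaks the median was 0.09, beside the 17.6% that were lower. Of all 1164 genes with a tested peak, 308 had a lower one. At a minimum count of 5, 8 of 50 E1 and E2 peaks were lower, 16 of 102 E3 peaks, 6 of 53 deubiquitinase peaks and 5 of 43 proteasome peaks. There 13.3% of all 9485 peaks were lower, and 1 E3 peak was higher.
The called peaks of the genes named below all passed the minimum count of 10 through their WT libraries. Their entry to the test thus depended on the group in which they were high. The E3 gene with the smallest p was Ubr4, which recognises destabilising N-termini. Its coding peak chr4:139437082-139437109 had 6.58 ± 3.57 CPM in KO and 101 ± 28.0 CPM in WT, a log2 change of -4.20 ± 0.52 with edgeR adjusted p = 8.34e-05 and a 7-mer-A1 match of miR-451a. A coding peak of Herc2, a very large HECT-type ligase, had 0 KO Ago reads and 59 WT Ago reads, with edgeR adjusted p = 9.87e-05. An intron peak of Btrc, the substrate receptor of an SCF ligase, had 11.0 ± 16.6 CPM in KO and 103 ± 20.4 CPM in WT. A 3′UTR peak of Rnf11, a small RING-type ligase, had 15.1 ± 8.35 CPM in KO and 84.6 ± 11.0 CPM in WT and a 7-mer-A1 match of miR-144-3p.
Of the deubiquitinases, a 3′UTR peak of Usp7, which acts on Mdm2 and p53, had 11.5 ± 4.94 CPM in KO and 91.3 ± 7.77 CPM in WT. A coding peak of Usp47 had 1 KO read and 54 WT reads. Of the proteasome genes, a 3′UTR peak of the core subunit gene Psmb4 had 21.5 ± 17.1 CPM in KO and 96.6 ± 14.95 CPM in WT. A 3′UTR peak of the regulatory subunit gene Psmd1 had 14.5 ± 9.51 CPM in KO and 59.6 ± 15.6 CPM in WT, and an 8-mer match of miR-144-3p.
The dynein subunits, as partners of Trim58, and the genes of organelle clearance gave 1 tested peak each. The organelle clearance peak had a log2 change of -0.41 and was not called. The dynein peak, in the coding sequence of the intermediate chain gene Dync1i2, had 0 KO Ago reads and 47 WT Ago reads, with edgeR adjusted p = 0.000120 and a 7-mer-m8 match of miR-451a. At a minimum count of 5, 1 of 6 tested dynein peaks was lower, and 0 of 6 tested dynein genes were called as gene sums. Of the ISG15 pathway, 4 peaks were tested and all were of Ube2l6.
As gene sums, 2 of 21 tested E1 and E2 genes were lower, 1 of 35 E3 genes, 0 of 24 deubiquitinases and 1 of 29 proteasome genes, beside the 5.37% of all genes. The 4 were Ube2l6, the E2 gene Ube2e3 with a log2 change of -1.02 ± 0.26 and edgeR adjusted p = 0.0334, Rnf11 with -0.86 ± 0.23 and Psmb4 with -1.04 ± 0.26. Ube2e3 was named after its value was seen. Of 2 tested ubiquitin precursor genes, Ubb among them, 0 were called.

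The genes whose summed reads varied most like a member's over the 12 libraries were found by Pearson correlation of log2 CPM among 2644 genes, as a description, since the libraries share genotype, antibody and depth. Ube2l6 was most like Ssx2ip (r = 0.96), Fam13b (0.93) and Smc6 (0.89). Ube2o was most like Ncoa4, Atad5 and Clta, at 0.94, 0.94 and 0.93. Ubb was most like Lats1 (0.83), Hemgn (0.81) and Rraga (0.79). Trim58 had too few reads over the 12 libraries to be included.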

How the data were processed

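Read counts per peak in 12 libraries were analysed. The deposited counts are whole reads, each overlapping its peak by 16 bases or more, and the peaks were called by the authors on all Ago libraries together and end where coverage drops to 50% of its maximum, per the deposited column notes. The submitters' processing notes name STAR, cutadapt, limma and bedtools and the mm10 build, with no version or role stated. Deposited alongside were a coverage signal (the lowest peak height in KO or in WT Ago libraries, whichever is larger), a ratio of IgG to Ago peak height, a score for peak density over background, and a seed match score for each microRNA. The authors' deposited table gives log2 fold changes, p-values and false discovery rates, which were copied and not recomputed.

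Counts were tested on the whole table with the edgeR 4.0.16 quasi-likelihood test in R 4.3.3, on TMM-scaled libraries filtered with filterByExpr (minimum count 10, minimum total 15). Each comparison used its own 6 libraries, and the interaction used all 12. Adjusted p-values are Benjamini-Hochberg values over all tested peaks or genes, with a threshold of 0.05. Within-gene tests used diffSpliceDGE. Gene sums left out the 332 peaks whose gene name had turned into a date. CPM values are on all reads in peaks. Ratios carry exact 95% intervals for counting error. Alternatives were other scalings and tools (DESeq2 1.42.0, limma 3.58.1 with voom), other filters, subsets of peaks, and leaving out each library. The edgeR test of each comparison was checked on simulated counts, and the DESeq2 and limma alternatives were not. Named pathway genes are up to 4 per list with the smallest p, at 1 peak per gene. The members, lists and rules were chosen with earlier results of these data known.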

Additional observations from a re-analysis of the deposited data

How the results depend on the processing

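Both Ube2l6 3′UTR peaks and the gene sum of Ube2l6 kept their direction in every alternative run, and no called value changed sign. The count of member peaks lower in KO was 2, and became 8 with no filter, 5 at a minimum count of 5 and 1 on the authors' peaks alone. Leaving out each library gave 2 to 5, with 5 without KO library 3 and without KO library 13, where Ube2o peaks entered. Member peaks higher in KO numbered 0, and 0 to 1 on leaving out each library, the 1 without WT library 9. That peak entered the test through its KO libraries. Members lower as gene sums numbered 1, and 0 on coding peaks alone, where Ube2l6 had a log2 change of -0.75. Peaks lower than the rest of their gene numbered 1, and 3 at a minimum count of 5, with 0 to 2 on leaving out each library, 0 without KO library 12 and without WT library 9. The higher count there was 0, and 1 at a minimum count of 5. The causes were not tested. Over the whole table, the 428 lower peaks became 1259 at a minimum count of 5 and 2704 with no filter, with 304 to 986 on leaving out each library. The 34 higher peaks became 69 with library sizes in place of TMM, 7 with DESeq2 and 56 at a minimum count of 5, with 3 to 54 on leaving out each library. The 238 lower genes became 117 with DESeq2 and 435 with no filter, with 115 to 322 on leaving out each library. The IgG libraries, with 24622 to 42916 reads in peaks, limit every comparison with background, and most member peaks had too few reads to test. No paired analysis was made, because the labels do not say whether Ago and IgG libraries came from the same livers. The comparisons of Ago with IgG and the interaction therefore treat the libraries as unpaired.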
